A study of Mus musculus with 24 samples.

Results

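On the unamplified arrays, the genes described here were high in mouse embryonic stem cells (ESCs) and lower in all 3 later cell states compared in culture. In the germ cells made in culture, they lay less than 1 log2 unit above the preceding cells, if above them at all. They were chosen on the unamplified arrays by 5 conditions on log2 intensity, with values below 4.2 raised to it, the mean of 2 arrays taken per group, and each gene represented by its probe set of highest mean over all 24 arrays. ESCs had to lie at least 2 log2 units above day 2 epiblast-like cells (EpiLCs), epiblast stem cells (EpiSCs) and primordial germ cell-like cells (PGCLCs). PGCLCs had to lie less than 1 above day 2 EpiLCs, and the ESC mean had to be at least 6. Of 18194 genes with a probe set of their own, 10458 reached the ESC level, 300 of these were lower in day 2 EpiLCs, 158 were also lower in EpiSCs, 94 also in PGCLCs, and 77 met the last condition as well. The differences among these 4 unamplified groups chose the members and are given below as a description, with no test. Tests were made on arrays whose values the conditions did not use. Some of them repeat contrasts of the choice on the amplified arrays and are not independent of it. Probe sets were taken by their mean over all 24 arrays, and the unamplified test took its spread from all 6 groups.

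The series followed the making of germ cells in culture and set the cells against their counterparts in the embryo, with 24 Affymetrix arrays in 12 groups of 2. All cells carried the strain label C57BL/6. The unamplified arrays held ESCs grown without feeder cells in 2i with LIF, EpiLCs induced from these ESCs and taken at day 1, day 2 and day 3, EpiSCs derived from the embryonic day 5.75 epiblast, and PGCLCs induced from day 2 EpiLCs. The amplified arrays held ESCs, day 2 EpiLCs, EpiSCs and PGCLCs again, the epiblast at embryonic day 5.5 to 6, and E9.5 PGCs, the primordial germ cells of the embryo at day 9.5, all after PCR amplification of a small amount of RNA. The sources used here do not give whether the amplified arrays started from the same RNA extracts as the unamplified arrays. Each group's 2 samples are biological replicates by their labels, which leave it unsaid if cultures or litters were separate, and every p-value here reflects only how far these samples spread.

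As background, 2i is a pair of inhibitors, of MEK and of GSK3, that together with the cytokine LIF keeps mouse ESCs in the naive state of the pre-implantation epiblast. Release from 2i, with activin and FGF, moves the cells to a formative state like the epiblast after implantation, and the naive transcription factors are shut down on the way. BMP4 then induces PGCLCs, in which several naive regulators are known to be switched on again, as they are in PGCs of the embryo. The genes below are ESC genes chosen to lie outside that return on the unamplified arrays.

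The labelled cell types were checked against their markers. Fgf5, a marker of the implanted epiblast, lay at 857 and 899.5 in day 2 EpiLCs and at 1.00 and 1.00 in ESCs. Prdm1, the germ cell determinant, lay at 923 and 1233 in PGCLCs and at 32.6 and 34.4 in day 2 EpiLCs. The pluripotency gene Pou5f1 lay above 3600 on every array. Across tested genes, replicate arrays correlated at 0.975 to 0.991 in the unamplified groups and at 0.911 to 0.972 in the amplified groups, with EpiSCs the lowest. The lowest intensity in the table is 1.00, and values under 4.2 were raised to it before log2. Intensities compare arrays for 1 probe set and not 1 gene with another, and in bulk samples fewer cells of a type and less RNA per cell cannot be told apart. The level under which a probe set is called below background here is the 40th percentile of the array set, 28.1 on unamplified and 24.04 on amplified arrays.

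Sorted by what they are known to do, after they had been chosen, 55 members fell into 7 groups. There were 13 regulators of transcription: Nr0b1, Mitf, Klf15, Olig2, Hesx1, Vax2, Nkx6-2, Nkx6-3, Hoxc4, Hoxc13, Ripply3, Zfp229 and Zfp934. Mitf, with Pmel, Gpnmb and Gpr143, also belongs to 4 genes known from pigment cells. The 13 enzymes were Mtarc2, Ddc, Cdo1, Cpt1a, Aldh1l1, Qpct, Napepld, Adh1, Gsta3, Gpx6, Mme, Pde8a and Itpka. Ligands, carriers and inhibitors gave 9 members: Pdgfc, Mst1, Ccl25, Apod, Saa3, Spint1, Serpinb1a, Cfp and Vwf. Receptors, transporters and immune surface genes gave 7, namely Ly75, Slc39a4, Slc6a7, Abcb1b, Laptm5, Cd80 and Vpreb1. Vesicle and cytoskeleton genes also gave 7, namely Syngr1, Sh3gl2, Dnajc6, Rab11fip5, Cobl, Hap1 and Nckap1l. Mymx, Casq2 and S100a1 are muscle genes. Another 12 named members were left without a group: Accsl, Acsbg3, Dclk3, Elobl, Fam102a, Glod5, Hebp1, Ppp1r14d, Sycp2l, Timm8a2, Tspo2 and Ubd. The last 10 had provisional names: 1700042O10Rik, 1700097N02Rik, 2210409E12Rik, 2300002M23Rik, 2310043M15Rik, 2410003I16Rik, 2410137M14Rik, AA414768, Gm12159 and Gm21283.

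**Figure D1:**
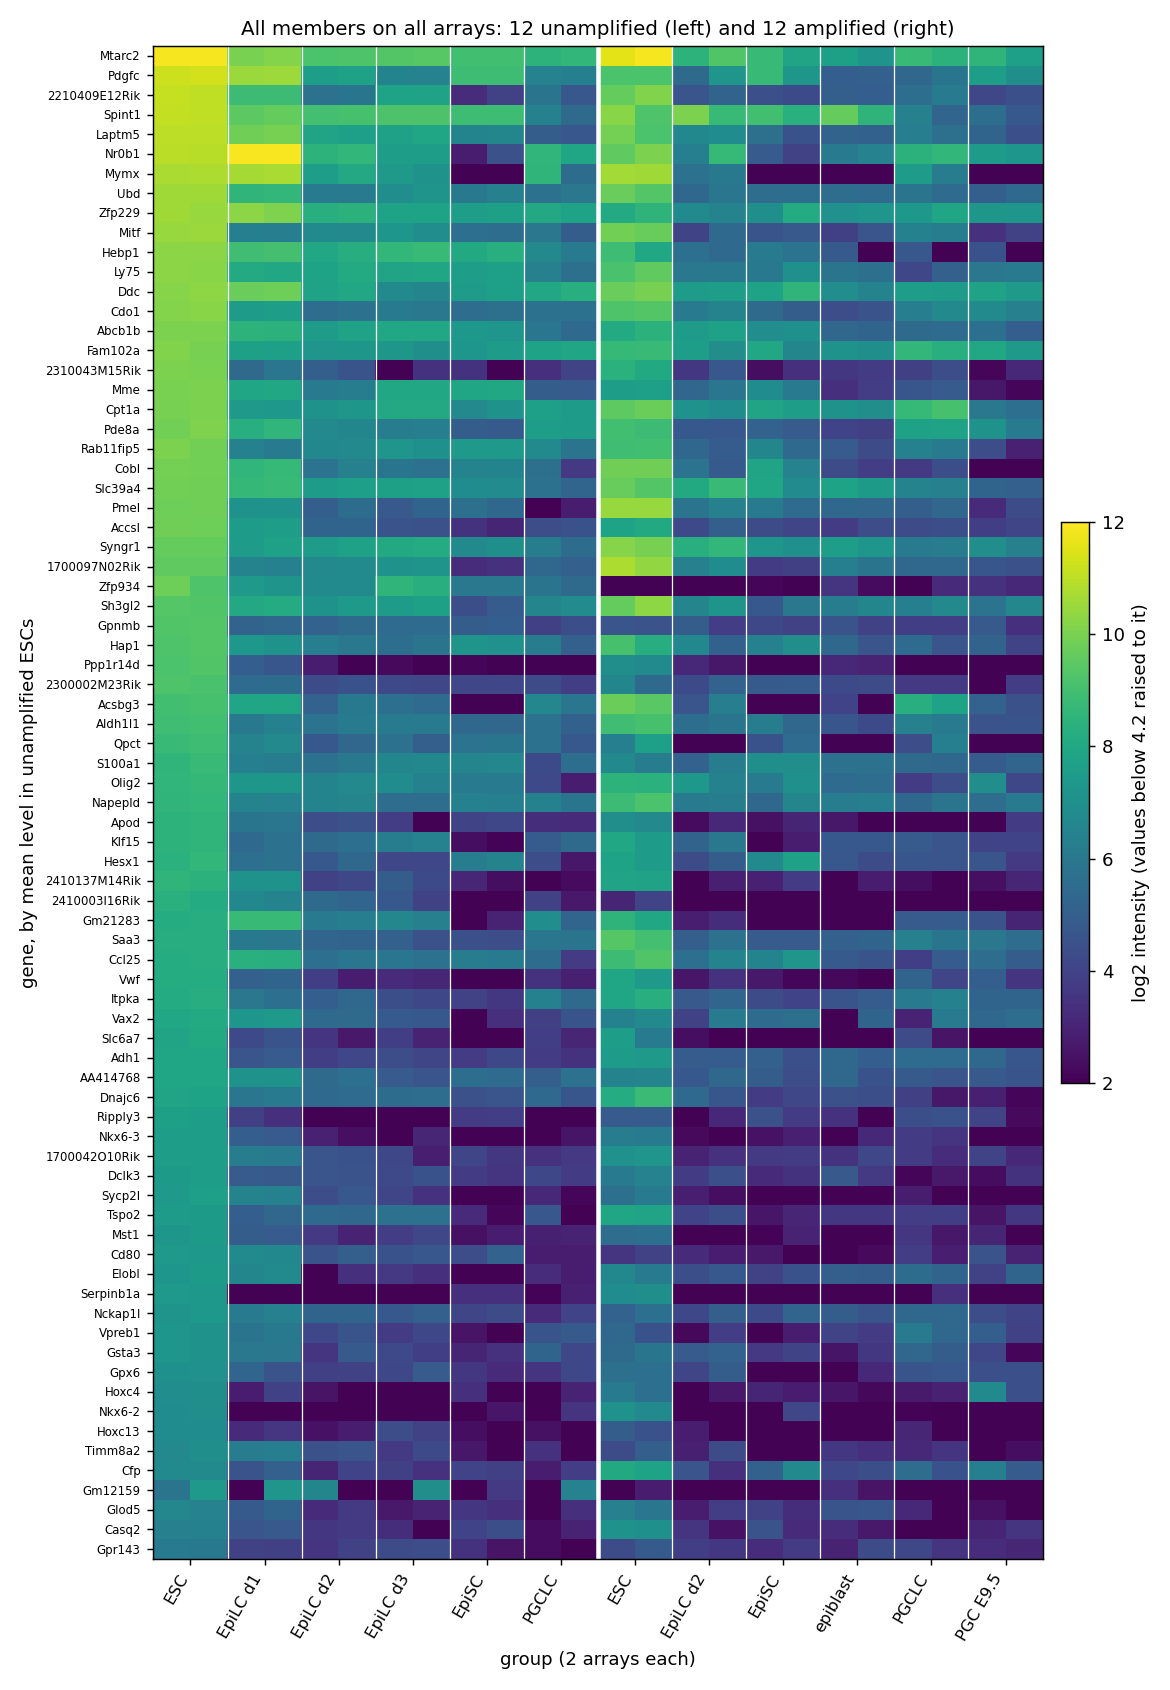
Log2 intensity (colour) of all 77 members (rows, ordered by their mean in unamplified ESCs) on the 24 arrays (columns, 2 per group, the thick line parting unamplified from amplified arrays). The ESC columns are the brightest of each set, and most members stay dark in the epiblast and in E9.5 PGCs, which the choice of members did not use; Zfp934 and Gpnmb are bright in unamplified but not in amplified ESCs.

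Sequence before the start site was available for 59 of the 77 members, as 71 RefSeq windows of 300 bases (build GRCm38.p6, from 250 bases before to 50 after the start). A set of 6 motifs was searched on both strands, in these windows and in all 32851 windows of the same length. The TATA box TATAAA was in 16.9% of member windows and 13.6% of all. The Klf box GGGNGTGG was in 15.5% and 17.6%, the STAT site TTCNNNGAA in 9.86% and 8.30%, and the E-box CACGTG in 7.04% and 7.15%. AAGGTCA, the single site of orphan receptors such as Esrrb, was in 4.23% and 4.72%, and the octamer ATGCAAAT in 0 of the 71 member windows and 1.74% of all. The median number of CG dinucleotides was 9 in member windows and 7 in all. The 250 bases before the start are printed for 3 members the results turn on, the member with the highest level in ESCs (Mtarc2), the only member on the naive pluripotency list (Nr0b1) and the pigment cell regulator (Mitf), with the matched motif in capitals. A match is a description of these letters and not a binding site.

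For Mtarc2, 1 of its 2 windows is shown, at chr1:184845909-184846158 on the minus strand, and the capitals mark the Klf box, whose first base lies at position -71 from the start. The Nr0b1 stretch lies at chrX:86191525-86191774 on the plus strand, and the capitals mark TATAAA, starting at position -32. The Mitf stretch, from 1 of its 3 windows, lies at chr6:97806808-97807057 on the plus strand, and the capitals mark that single site read on the other strand, starting at position -152.
Mtarc2: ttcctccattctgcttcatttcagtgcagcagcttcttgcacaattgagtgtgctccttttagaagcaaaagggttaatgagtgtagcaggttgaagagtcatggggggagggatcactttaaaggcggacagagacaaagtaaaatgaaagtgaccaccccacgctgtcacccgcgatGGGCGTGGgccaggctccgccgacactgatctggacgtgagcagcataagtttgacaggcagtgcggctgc
Nr0b1: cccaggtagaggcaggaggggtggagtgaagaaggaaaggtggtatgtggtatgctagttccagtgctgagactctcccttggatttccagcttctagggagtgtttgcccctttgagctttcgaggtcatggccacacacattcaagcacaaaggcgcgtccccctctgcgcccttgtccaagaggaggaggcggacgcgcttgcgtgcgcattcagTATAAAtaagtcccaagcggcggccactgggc
Mitf: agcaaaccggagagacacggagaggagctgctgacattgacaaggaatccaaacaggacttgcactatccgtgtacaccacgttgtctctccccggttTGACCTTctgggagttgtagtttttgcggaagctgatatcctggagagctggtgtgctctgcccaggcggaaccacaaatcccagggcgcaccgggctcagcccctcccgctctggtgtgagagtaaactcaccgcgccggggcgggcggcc

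In unamplified ESCs the members spanned a wide range of levels, from a geometric mean intensity of 67.9 to 3759 with a median of 379, and replicate ESC arrays lay close together, with a median SD of 0.04 log2. Mtarc2, a molybdenum enzyme of the outer mitochondrial membrane, had the highest ESC level and read 3745 and 3772 in ESCs, 1003 and 1119 in day 1 EpiLCs, 576 and 601 in day 2 EpiLCs, 637 and 675 in day 3 EpiLCs, 503 and 507 in EpiSCs and 354 and 395 in PGCLCs. Its ESC arrays were far above all others, while its later groups still lay well above background. Pdgfc, a growth factor that binds the receptor PDGFRA, read 2442 and 2576 in ESCs, 1426 and 1483 in day 1 EpiLCs, 197 and 211 in day 2 EpiLCs, 91.9 and 85.9 in day 3 EpiLCs, 472 and 475 in EpiSCs and 87.4 and 79.3 in PGCLCs. Its EpiSC arrays lay above those of day 2 and day 3 EpiLCs, so EpiSCs were not its lowest group.

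Over all 77 members the median log2 difference of ESCs was 3.00 from day 2 EpiLCs, 3.96 from EpiSCs and 4.09 from PGCLCs. These values follow from the choice of members. PGCLCs lay below day 2 EpiLCs in 60 of the 77, by at least 1 log2 unit in 30, and the median of PGCLC minus day 2 EpiLC was -0.53. EpiSCs lay at least 1 below day 2 EpiLCs in 25 members and at least 1 above in 5. On both arrays of a group, 46 members were above background in day 2 EpiLCs, 32 in EpiSCs and 32 in PGCLCs, so for many members a level in the later groups is only a bound. In 10 members the replicates of at least 1 of the 4 groups had an SD above 1 log2 unit. Gm12159, named after its values were seen, was 1 of them, at 58.3 and 167 in ESCs and 97.2 and 1.00 in day 2 EpiLCs.

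The members nearest the limits were held there by the day 2 EpiLC condition. Just inside lay Olig2, a bHLH regulator of the neural tube, with ESC minus day 2 EpiLC at 2.01, Spint1 at 2.01, Nckap1l at 2.02 and Syngr1 at 2.03. Just outside lay Egfl6 at 1.997, Septin1 at 1.97 and Apoe at 1.97, and Tet2, an enzyme that oxidises methylated cytosine, missed by its ESC minus PGCLC difference of 1.97. With a limit of 1.5 in place of 2, 149 genes met the conditions, and with 2.5 it was 43.

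The 19 genes of a naive pluripotency list were set against the same conditions. Of these, 14 lay at least 2 lower in day 2 EpiLCs, 13 of the 14 also in EpiSCs, and 12 of the 13 missed a condition on PGCLCs. The one that met all conditions was Nr0b1. Klf2, a naive transcription factor, had log2 means of 11.67 in ESCs, 7.03 in day 2 EpiLCs and 11.44 in PGCLCs. Klf4, another factor of the same family, came nearest to the members, with 12.25 in ESCs and PGCLCs 1.13 above day 2 EpiLCs. On 11 lists with 155 measured genes, which besides covered targets of LIF, WNT, BMP and ERK signalling, the 2-cell-like state, one-carbon metabolism, adhesion, interferon response and germ cell genes, Nr0b1 was the 1 member found, and 10 lists held none. Members were 77 of all 18194 genes, so 155 genes would hold few of them by that share alone. The count does not set the members apart from these lists.

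The day 1 EpiLC arrays, which the choice did not use, parted early from late members. At day 1, 33 members lay within 1 log2 unit of their day 2 level or below it, 13 lay within 1 of their ESC level or above it, and 31 lay between. The median member had covered 62.5% of its ESC to day 2 difference at day 1. ESC minus day 1, day 2 and day 3 had medians of 2.05, 3.00 and 3.30 over all members. At day 3, 67 members lay at least 2 below ESCs. These differences share the ESC arrays that chose the members, so they carry no test.

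Mitf, the bHLH regulator of the pigment lineage and of lysosomal genes, was among the early members, at 1412 and 1436 in ESCs, 80.7 and 76.8 in day 1 EpiLCs, 108 and 103 in day 2 EpiLCs and 153 and 119.7 in day 3 EpiLCs. Its day 1 arrays were the lowest of the course and overlapped no other group. Nr0b1, which encodes the orphan receptor DAX1, a member of the ESC transcription factor network, read 1999.6 and 1953 in ESCs, 3781 and 3835 in day 1 EpiLCs, 352 and 390.1 in day 2 EpiLCs and 191 and 189.6 in day 3 EpiLCs. Its day 1 arrays lay above the ESC arrays, which was so for 3 members, the others, named after their values were seen, being Gm21283 and the chemokine gene Ccl25. Pdgfc and Ddc, the gene of the decarboxylase that makes dopamine and serotonin, also stayed high at day 1. Ddc read 1157 and 1256 in ESCs, 832 and 894 in day 1 EpiLCs, 215 and 248 in day 2 EpiLCs and 109 and 93.5 in day 3 EpiLCs, lower on each later day without overlap between groups.

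Day 3 minus day 1 EpiLC, which rests on 4 arrays outside the choice, was tested with limma on all 14935 genes passing the filter on unamplified arrays. The choice asked for a low level at day 2, the day between them. A fall after day 1 is thus partly built into the members, and its count is not independent of the choice. The difference is given with its standard error. Calls needed a log2 difference of 1 or more in either direction together with a Benjamini-Hochberg adjusted p below 0.05. Of the 77 members, all of which passed the filter, 44 fell and 1 rose, against 7.12% and 8.52% of all tested genes (43 and 1 without the filter, against 6.16% and 7.31%). The median over the members was -1.34 and that over all genes 0.02. Whichever of the 4 arrays was left out, 39 of these 45 calls held. Beside these counts, 4 of 13 fibroblast markers were higher at day 3 and 0 lower, and 0 of 13 endothelium and blood markers were higher and 4 lower, and their part was not tested. Nr0b1 fell by 20.0-fold (log2 difference -4.32 ± 0.41, n = 2 per group, adjusted p = 8.00e-06) and Pdgfc by 16.4-fold (-4.03 ± 0.08, adjusted p = 1.05e-09). Ddc fell by 8.55-fold (-3.10 ± 0.12), Zfp229, a zinc finger gene, by 5.10-fold (-2.35 ± 0.10), and Mymx, the muscle fusion peptide myomixer, by 10.9-fold (-3.45 ± 0.67). Elobl, an elongin B-like gene, fell by at least 3.62-fold and Accsl, an ACC synthase-like gene, by at least 6.65-fold, the day 3 level being below background in both. Where the lower group is below background, a fold is given as at least the ratio to the background level.

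Some members were at a low level from day 1 on. Mitf (0.78 ± 0.26), Cpt1a (0.68 ± 0.13), Klf15 (0.78 ± 0.23), Rab11fip5 (0.81 ± 0.24) and Hoxc13 (0.76 ± 0.33, limma adjusted p = 0.0793) had positive differences under 1 and were not called. Zfp934, a zinc finger gene, was the 1 member that rose, by 2.19-fold (1.13 ± 0.20, limma adjusted p = 0.000606), with intensities of 898 and 603 in ESCs, 172 and 144 in day 1 EpiLCs, 110.3 and 110.1 in day 2 EpiLCs and 377 and 318 in day 3 EpiLCs. Its day 3 arrays lay above those of day 1 and day 2 and below those of ESCs. From day 2 to day 3, a description only, 4 members lay at least 1 higher and 5 at least 1 lower, and 68 moved by less than 1.

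**Figure D2:**
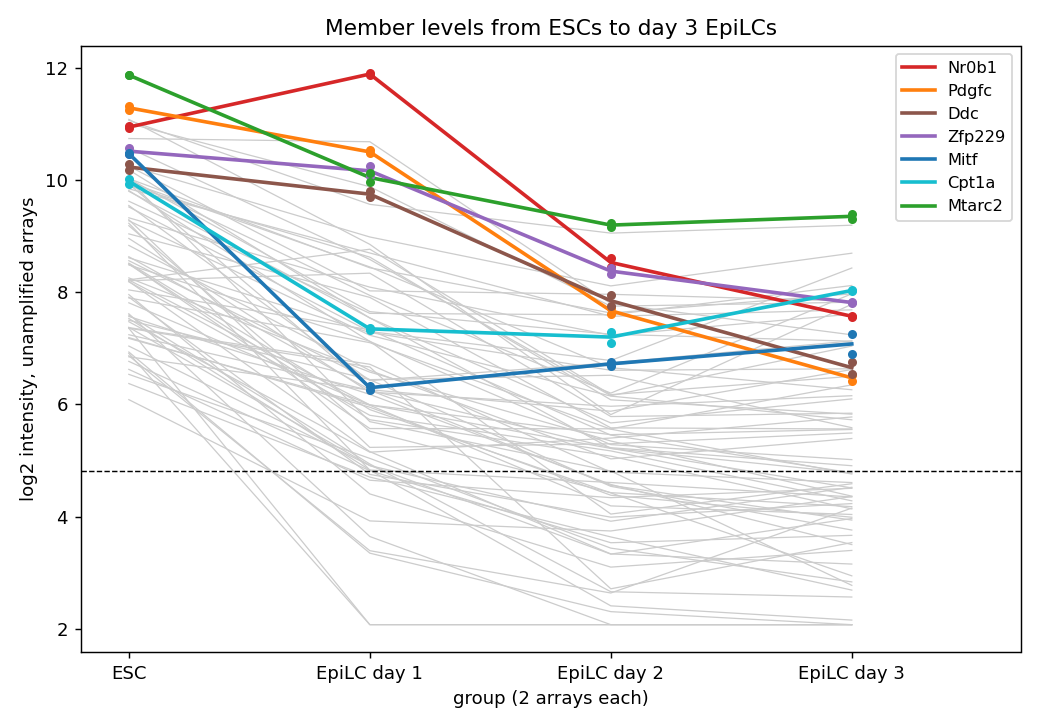
Log2 intensity on unamplified arrays (y) in ESCs and in EpiLCs at day 1, 2 and 3 (x), with 1 line of group means per member; coloured lines are 7 named members with both arrays as points, and the dashed line is the background level. Nr0b1, Pdgfc, Ddc and Zfp229 are near or above their ESC level at day 1, while Mitf and Cpt1a are at their low level by then.

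The amplified arrays gave a second set of measurements. Of the 77 members, 68 were above background on both amplified ESC arrays and 4 on neither, and the ESC level was at least 8-fold lower than on unamplified arrays in 6. Zfp934 read 898 and 603 on unamplified and 3.99 and 3.53 on amplified ESC arrays, and Gpnmb 619.9 and 636 against 25.1 and 23.4. What set these apart was not tested. The filter of at least 2 amplified arrays above background left 70 members, of which 17 passed only through the ESC arrays, so counts below are over all 77, with those not tested counted as not called, and are given without the filter as well. The 7 not tested were 2410003I16Rik, Cd80, Gm12159, Gpr143, Hoxc13, Timm8a2 and Zfp934.

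On amplified arrays, 54 of the 77 members were higher in ESCs than in day 2 EpiLCs and 0 lower, against 4.24% and 4.27% of the 15609 tested genes (56 and 0 without the filter, against 3.35% and 3.38%). EpiSCs gave 54 higher in ESCs and 0 lower, against 5.64% and 10.7% (55 and 0 without the filter, against 4.57% and 8.71%). PGCLCs gave 55 and 0, against 5.23% and 5.84%, and the same counts without the filter, against 4.18% and 4.69%. Members lower in ESCs at an unadjusted p under 0.05 also numbered 0 in these 3 comparisons. They are the contrasts of the choice in other arrays, so the counts are not independent of it. The amplified ESC arrays are shared among all comparisons with ESCs. The median log2 difference over all 77 was 2.90, 2.94 and 3.02, while that over all genes was at most 0.02 in size. Leaving out 1 array at a time gave 43 to 52, 48 to 54 and 45 to 52 members called. Beside the EpiSC count, the sum of 13 measured fibroblast markers was 7695 and 4435 in amplified EpiSCs, with all 13 above background, and 361 and 237 in ESCs, with 5 and 3 above background, and their part in the count was not tested.

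The embryo groups were not part of the choice. High levels in ESCs were, as were low levels in day 2 EpiLCs and PGCLCs, the cultured counterparts of these groups, so the counts are not independent of it. ESCs were higher than the epiblast in 59 of the 77 members and lower in 0, against 6.64% and 5.18% of tested genes. ESCs were higher than E9.5 PGCs in 60 and lower in 0, against 7.21% and 6.93%. Without the filter the counts were the same, at 59 against 5.35% and 4.06% for the epiblast, and 60 against 5.87% and 5.62% for PGCs. The medians over all members were 3.57 and 3.48, and those over all genes 0.01 and 0.00. Of these calls, 51 held in each comparison whichever array was left out. Beside the epiblast count, the sum of 10 measured visceral endoderm markers was 3192 and 1010 in the epiblast and 598 and 675 in ESCs. Beside the PGC count, the sum of 13 measured endothelium and blood markers was 11852 and 5089 in PGCs and 663 and 692 in ESCs, most of it from the embryonic globin genes Hba-x (8258 and 3346) and Hbb-bh1 (2684 and 582), while Cdh5 (25.98 and 21.6), Tie1 (22.4 and 12.7) and Ptprc (10.96 and 12.6) were near or below background and Hbb-y at the lowest intensity. The fibroblast markers summed to 2591 and 1072 in PGCs and to 361 and 237 in ESCs, with 11 and 9 of the 13 above background in PGCs against 5 and 3, and 1 was higher in ESCs and 7 lower (median log2 difference -2.42). The part of such cells in the counts was not tested.

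**Figure D3:**
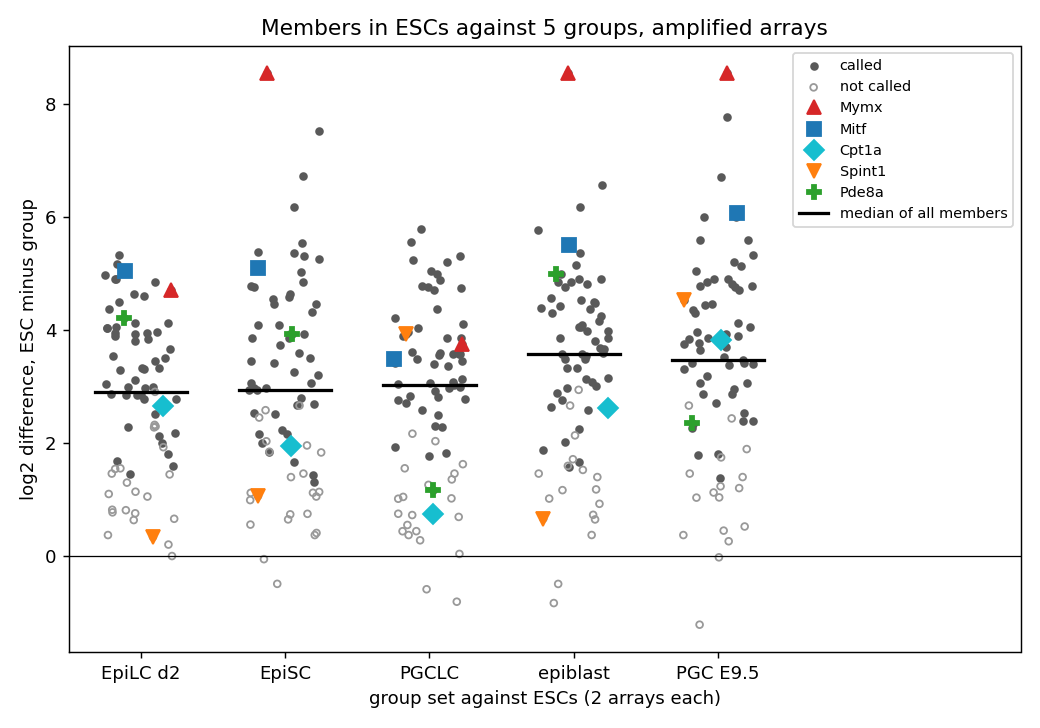
Log2 difference of ESCs minus each of 5 groups on amplified arrays (y) for all 77 members (points, spread sideways for sight), filled where called by limma and open where not; bars are medians and 5 members are coloured whether called or not. The medians lie between 2.90 and 3.57, Mymx and Mitf are high in every column, and Spint1 is near the bottom against day 2 EpiLCs and the epiblast and high against PGCLCs and PGCs.

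Among the 13 transcription regulators, of which 11 were tested, 7 were higher in ESCs than in day 2 EpiLCs, 6 than in EpiSCs, 7 than in PGCLCs, 8 than in the epiblast and 7 than in E9.5 PGCs. Without the filter the counts of the 13 were 8, 7, 8, 8 and 6, and 0 were lower in either case. These counts, and those of the role groups that follow in the same order, stand beside 4.24%, 5.64%, 5.23%, 6.64% and 7.21% of all tested genes, or 3.35%, 4.57%, 4.18%, 5.35% and 5.87% without the filter. The groups were formed from members chosen for high ESC levels, and no role group was tested. Mitf read 946 and 808 in ESCs, 16.4 and 42.8 in day 2 EpiLCs, 24.1 and 27.4 in EpiSCs, 14.99 and 24.9 in the epiblast, 84.7 and 72.5 in PGCLCs and 10.9 and 15.5 in E9.5 PGCs. Its ESC arrays lay above all others, and PGCLCs stood next, above day 2 EpiLCs and above PGCs without overlap. ESCs were 33-fold higher than day 2 EpiLCs (log2 difference 5.04 ± 0.44, limma adjusted p = 0.000148), at least 35.7-fold higher than the epiblast (5.50 ± 0.44) and at least 36.4-fold higher than PGCs (6.07 ± 0.44).

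Nr0b1 read 752 and 1034 in ESCs, 79.8 and 415 in day 2 EpiLCs, 29.03 and 15.7 in EpiSCs, 71.6 and 86.1 in the epiblast, 347 and 392 in PGCLCs and 185 and 153 in E9.5 PGCs, and its day 2 EpiLC arrays lay far apart. Against day 2 EpiLCs the difference was 2.28 ± 0.63 (limma adjusted p = 0.0531, and 0.0339 when the replicate number was a block), so the call depended on the block. Against EpiSCs Nr0b1 was at least 33.4-fold higher in ESCs (5.37 ± 0.63, adjusted p = 0.000298), and against the epiblast 11.2-fold (3.49 ± 0.63). PGCLCs gave 1.26 ± 0.63, which was not called (limma adjusted p = 0.273). The PGC call (2.39 ± 0.63, adjusted p = 0.029) was lost without ESC array 1 (0.0936), ESC array 2 (0.16), E9.5 PGC array 1 (0.0982) or E9.5 PGC array 2 (0.136).

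Klf15, a Kruppel-like factor known from metabolism in liver and muscle, read 253 and 177 in ESCs, 36.6 and 64.4 in day 2 EpiLCs, 1.00 and 6.75 in EpiSCs, 26.8 and 27.2 in the epiblast, 29.4 and 25.03 in PGCLCs and 16.6 and 15.99 in E9.5 PGCs. EpiSCs were its lowest group, at least 8.82-fold under ESCs (5.31 ± 0.36, limma adjusted p = 1.35e-05), and the epiblast and PGCs also lay under ESCs without overlap (2.98 ± 0.36 for the epiblast). Hesx1, a homeobox gene of the forebrain and pituitary that was named after its values were seen, read 223 and 178 in ESCs, 20.3 and 30.7 in day 2 EpiLCs, 107 and 210.4 in EpiSCs, 26.03 and 19.7 in the epiblast, 25.2 and 24.8 in PGCLCs and 24.5 and 13.1 in E9.5 PGCs. Its EpiSC arrays overlapped the ESC arrays (difference 0.41 ± 0.41, limma adjusted p = 0.568), while PGCLCs (2.99 ± 0.41) and the epiblast (3.14 ± 0.41) were lower. Nkx6-2, a homeobox gene of the neural tube also named after its values were seen, read 140.2 and 111 in ESCs, 3.23 and 2.65 in day 2 EpiLCs, 2.71 and 17.6 in EpiSCs, 3.87 and 1.00 in the epiblast, 4.23 and 1.00 in PGCLCs and 1.00 and 1.00 in E9.5 PGCs. Only its ESC arrays were above background.

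Hoxc4, a homeobox gene of the Hox C cluster known for trunk identity, read 68.6 and 50.4 in ESCs, 3.33 and 6.48 in day 2 EpiLCs, 8.28 and 6.72 in EpiSCs, 6.01 and 4.63 in the epiblast, 6.68 and 7.54 in PGCLCs and 109.6 and 21.9 in E9.5 PGCs. The PGC arrays differed widely from each other, and 1 of them was the highest of all 12. ESC minus PGC was 0.26 ± 0.65 and not called (limma adjusted p = 0.866). Hoxc4 passed the filter through the ESC arrays alone, and without the filter this difference was not called either (limma adjusted p = 0.88). Olig2 read 349 and 333 in ESCs, 161 and 83.98 in day 2 EpiLCs, 69.1 and 130.5 in EpiSCs, 45.2 and 47.04 in the epiblast, 13.2 and 20.7 in PGCLCs and 122 and 18.1 in E9.5 PGCs, and its PGC arrays were also far apart. In both genes PGC array 1 was the higher. That array also had the higher sums of endothelium and blood markers and of fibroblast markers, and the part of either in these values was not tested.

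Of the 4 pigment cell genes, of which 3 were tested, Mitf and Pmel were higher in ESCs in all 5 comparisons, with 2 in each without the filter as well. Pmel, which encodes the glycoprotein of melanosome fibrils, read 1413 and 1414 in ESCs, 57.1 and 82.8 in day 2 EpiLCs, 71.8 and 44.9 in EpiSCs, 40.3 and 39.7 in the epiblast, 32.96 and 39.1 in PGCLCs and 9.39 and 19.8 in E9.5 PGCs, so ESCs lay far above every other group without overlap. ESCs were 20.6-fold higher than day 2 EpiLCs (4.36 ± 0.38, limma adjusted p = 0.000144), 35.3-fold higher than the epiblast (5.14 ± 0.38) and at least 58.8-fold higher than PGCs (6.70 ± 0.38). Gpnmb, which encodes a relative of it, lay at or near background on all amplified arrays, ESCs included, and was called in none of the comparisons with ESCs (largest difference 0.75 ± 0.52).

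Of the 13 enzymes, all of them tested, 11 were higher in ESCs than in day 2 EpiLCs, 10 than in EpiSCs, 9 than in PGCLCs, 13 than in the epiblast and 12 than in PGCs, and without the filter 11, 10, 8, 13 and 12. Mtarc2 read 3105 and 3742 in ESCs, 357 and 621 in day 2 EpiLCs, 422 and 229.7 in EpiSCs, 208 and 146 in the epiblast, 441 and 340.3 in PGCLCs and 372 and 199 in E9.5 PGCs, and was 7.24-fold (2.86 ± 0.42, limma adjusted p = 0.00246), 19.6-fold (4.29 ± 0.42) and 12.5-fold (3.65 ± 0.42) higher in ESCs than in day 2 EpiLCs, the epiblast and PGCs. The groups did not overlap with ESCs. Ddc read 848 and 983 in ESCs, 181 and 192 in day 2 EpiLCs, 223 and 371 in EpiSCs, 118 and 89.3 in the epiblast, 194 and 184 in PGCLCs and 218 and 165 in E9.5 PGCs, with ESCs 4.89-fold above day 2 EpiLCs (2.29 ± 0.29), 8.89-fold above the epiblast (3.15 ± 0.29) and 4.81-fold above PGCs (2.27 ± 0.29).

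Cdo1, the cysteine dioxygenase that starts the breakdown of cysteine to taurine, read 602 and 639.7 in ESCs, 70.5 and 87.99 in day 2 EpiLCs, 43.6 and 30.9 in EpiSCs, 20.5 and 23.6 in the epiblast, 77.5 and 105 in PGCLCs and 110.3 and 82.2 in E9.5 PGCs. The epiblast was its lowest group, with both arrays near background, and ESCs were at least 25.8-fold higher (4.82 ± 0.28, limma adjusted p = 1.44e-05). Aldh1l1, a folate enzyme named after its values were seen, read 494 and 549.8 in ESCs, 49.5 and 56.9 in day 2 EpiLCs, 73.3 and 40.5 in EpiSCs, 25.3 and 19.1 in the epiblast, 81.7 and 71.6 in PGCLCs and 23.7 and 23.96 in E9.5 PGCs. It was lowest in the epiblast and in PGCs, at least 21.2-fold and at least 21.7-fold under ESCs (4.57 ± 0.30 and 4.45 ± 0.30).

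Gsta3, a glutathione S-transferase, read 44.1 and 59.04 in ESCs, 29.6 and 35.3 in day 2 EpiLCs, 12.5 and 16.4 in EpiSCs, 5.94 and 12.3 in the epiblast, 39.6 and 30.7 in PGCLCs and 17.7 and 4.45 in E9.5 PGCs. ESCs lay above the other groups without overlap, but the differences from day 2 EpiLCs (0.66 ± 0.60, limma adjusted p = 0.623) and PGCLCs (0.55 ± 0.60, adjusted p = 0.695) were not called. The call against the epiblast (2.58 ± 0.60, adjusted p = 0.0195) was lost without ESC array 1 (0.0778), ESC array 2 (0.127) or epiblast array 1 (0.149), and that against PGCs (2.52 ± 0.60, adjusted p = 0.0185) without ESC array 1 (0.0714), ESC array 2 (0.119) or E9.5 PGC array 2 (0.0966). From day 1 to day 3 of the EpiLC course, on unamplified arrays, Gsta3 fell by at least 2.26-fold (-1.95 ± 0.43, limma adjusted p = 0.00325). Gpx6, a glutathione peroxidase, read 51.5 and 49.96 in ESCs, 17.1 and 31.1 in day 2 EpiLCs, 1.90 and 3.28 in EpiSCs, 1.00 and 8.54 in the epiblast, 23.98 and 26.1 in PGCLCs and 21.5 and 21.6 in E9.5 PGCs. Its differences from day 2 EpiLCs (1.14 ± 0.42, adjusted p = 0.146) and PGCLCs (1.02 ± 0.42, adjusted p = 0.175) were not called, while those from EpiSCs (3.59 ± 0.42, adjusted p = 0.000306) and the epiblast (3.08 ± 0.42, adjusted p = 0.00121) were. The difference from PGCs (1.23 ± 0.42, adjusted p = 0.0834) passed with the replicate block only (0.048). Both PGC arrays lay above those of the epiblast (1.85 ± 0.42, adjusted p = 0.0203) though below background, and that call was lost without epiblast array 1 (0.152), E9.5 PGC array 1 (0.0827) or E9.5 PGC array 2 (0.0924).

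Cpt1a, the carnitine palmitoyltransferase that limits the entry of fatty acids into mitochondria, read 728 and 874 in ESCs, 140.00 and 116 in day 2 EpiLCs, 227 and 187 in EpiSCs, 138 and 122 in the epiblast, 415 and 544 in PGCLCs and 63.7 and 50.4 in E9.5 PGCs. Its PGCLC arrays came close to the ESC arrays without overlap, and its PGC arrays were the lowest of all. ESCs were 6.27-fold higher than day 2 EpiLCs (2.65 ± 0.26, limma adjusted p = 0.00025) and 14.1-fold higher than PGCs (3.82 ± 0.26, adjusted p = 1.79e-05). The difference from PGCLCs was 0.75 ± 0.26 and was not called (limma adjusted p = 0.0972). On the unamplified arrays that chose the members, Cpt1a read 983 and 1043 in ESCs, 138 and 157 in day 2 EpiLCs and 200.3 and 186 in PGCLCs. Amplified PGCLCs stood nearer to ESCs than unamplified PGCLCs did, a difference between array sets that was not tested.

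Pde8a, a phosphodiesterase that breaks down cyclic AMP, read 509 and 466 in ESCs, 26.6 and 25.9 in day 2 EpiLCs, 35.6 and 29.1 in EpiSCs, 16.01 and 14.8 in the epiblast, 213 and 219 in PGCLCs and 137 and 67.04 in E9.5 PGCs. Both germ cell groups lay between ESCs and the other 3 groups without overlap. ESCs were 18.5-fold higher than day 2 EpiLCs (4.21 ± 0.32, limma adjusted p = 7.04e-05), at least 20.3-fold higher than the epiblast (4.98 ± 0.32) and 5.09-fold higher than PGCs (2.35 ± 0.32). The call against PGCLCs (1.17 ± 0.32, adjusted p = 0.0403) was lost without ESC array 1 (0.203), ESC array 2 (0.143), PGCLC array 1 (0.177) or PGCLC array 2 (0.158).

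Of the 9 ligands, carriers and inhibitors, 8 were higher in ESCs than in day 2 EpiLCs, 6 than in EpiSCs, 9 than in PGCLCs, 8 than in the epiblast and 8 than in PGCs, and without the filter 8, 6, 9, 8 and 7. Spint1, which encodes a Kunitz-type inhibitor of serine proteases at the surface of epithelia, read 1183 and 609.8 in ESCs, 1045 and 432 in day 2 EpiLCs, 508 and 326 in EpiSCs, 794 and 363 in the epiblast, 81.4 and 38.01 in PGCLCs and 49.3 and 27.2 in E9.5 PGCs. Day 2 EpiLCs and the epiblast overlapped the ESC range, EpiSCs lay just under it, and both germ cell groups were far lower. Array 1 was the higher in every group, and at the same array number ESCs lay above day 2 EpiLCs and the epiblast. ESC minus day 2 EpiLC was 0.34 ± 0.60 and ESC minus epiblast 0.66 ± 0.60, and neither was called (limma adjusted p = 0.83 and 0.594). ESC minus EpiSC (1.06 ± 0.60, adjusted p = 0.28) was called only with the replicate block (0.00492). ESCs were 15.3-fold higher than PGCLCs (3.93 ± 0.60, adjusted p = 0.00228) and 23.2-fold higher than PGCs (4.54 ± 0.60, adjusted p = 0.000764).

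Pdgfc read 578 and 582 in ESCs, 44.2 and 147 in day 2 EpiLCs, 445 and 157 in EpiSCs, 31.4 and 33.5 in the epiblast, 39.5 and 59.6 in PGCLCs and 192 and 127 in E9.5 PGCs. Its EpiSC arrays reached up towards ESCs, and its PGC arrays lay above those of PGCLCs and the epiblast. ESCs were 17.9-fold higher than the epiblast (4.16 ± 0.59, limma adjusted p = 0.00143) and 11.9-fold higher than PGCLCs (3.58 ± 0.59). EpiSCs (1.13 ± 0.59) were not called, and the PGC difference (1.89 ± 0.59, adjusted p = 0.0598) passed only with the replicate block (0.0499). Against day 2 EpiLCs the call (2.84 ± 0.59, adjusted p = 0.0149) was lost without ESC array 1 (0.0881), ESC array 2 (0.0921) or day 2 EpiLC array 1 (0.107). Of the EpiSC arrays, array 1 was the higher for Pdgfc and for the fibroblast marker sum given above.

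Saa3, a serum amyloid gene, and Vwf, the clotting factor of endothelium and platelets, were called in all 5 comparisons with ESCs. Saa3, named after its values were seen, read 658 and 514 in ESCs, 32.8 and 52.8 in day 2 EpiLCs, 29.5 and 29.1 in EpiSCs, 33.3 and 37.2 in the epiblast, 82.7 and 59.4 in PGCLCs and 62.2 and 47.7 in E9.5 PGCs, and its lowest ESC array was more than 6 times the highest of any other group. Vwf read 245 and 166 in ESCs, 6.06 and 10.7 in day 2 EpiLCs, 6.36 and 4.37 in EpiSCs, 4.64 and 1.00 in the epiblast, 36.3 and 17 in PGCLCs and 31.96 and 11.5 in E9.5 PGCs, above background in the other groups on 1 PGCLC array and 1 PGC array only. Its ESC level was at least 8.38-fold above the epiblast (5.51 ± 0.57, limma adjusted p = 0.000249) and at least 7.26-fold above PGCs (3.39 ± 0.57). The PGCLC call (3.02 ± 0.57, adjusted p = 0.00721) was lost without ESC array 1 (0.0763) or PGCLC array 2 (0.0687).

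Receptors, transporters and immune surface genes gave 3 members higher in ESCs than in day 2 EpiLCs, 6 than in EpiSCs, 5 than in PGCLCs, 5 than in the epiblast and 5 than in PGCs, of 7 with 6 tested, and the same counts without the filter. Ly75, the endocytic receptor DEC-205 of dendritic cells, read 562 and 751 in ESCs, 64.1 and 65.9 in day 2 EpiLCs, 66.6 and 131 in EpiSCs, 57.4 and 51.97 in the epiblast, 17.6 and 33.9 in PGCLCs and 62.9 and 68.6 in E9.5 PGCs, with ESCs above all other groups. ESCs were 9.99-fold higher than day 2 EpiLCs (3.32 ± 0.38, limma adjusted p = 0.000629) and 26.6-fold higher than PGCLCs (4.73 ± 0.38). Laptm5, a lysosomal membrane protein of blood cells, read 961 and 578 in ESCs, 102 and 117 in day 2 EpiLCs, 51.2 and 22.7 in EpiSCs, 35.9 and 33.97 in the epiblast, 77.6 and 51.03 in PGCLCs and 37.5 and 21.6 in E9.5 PGCs. Its ESC arrays lay far above the rest, 21.4-fold over the epiblast (4.42 ± 0.44) and 26.2-fold over PGCs (4.71 ± 0.44).

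Abcb1b, a P-glycoprotein pump that exports drugs, read 278 and 345 in ESCs, 186 and 213 in day 2 EpiLCs, 121 and 129 in EpiSCs, 39.7 and 37.6 in the epiblast, 43.6 and 44.9 in PGCLCs and 49.8 and 31.9 in E9.5 PGCs. The epiblast, PGCLCs and PGCs formed a low set without overlap with the other groups, and day 2 EpiLCs lay closest under ESCs. ESC minus day 2 EpiLC was 0.64 ± 0.26 and was not called (limma adjusted p = 0.196), whereas ESCs were 8.01-fold higher than the epiblast (3.00 ± 0.26, adjusted p = 9.40e-05). Slc39a4, the zinc importer ZIP4, read 827 and 633 in ESCs, 266 and 429.9 in day 2 EpiLCs, 236 and 113 in EpiSCs, 225 and 175 in the epiblast, 88.3 and 82.3 in PGCLCs and 37.6 and 33.9 in E9.5 PGCs. Here both germ cell groups were lowest, 8.49-fold and 20.3-fold under ESCs (3.09 ± 0.37 and 4.34 ± 0.37), and the difference from day 2 EpiLCs (1.10 ± 0.37) was not called.

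Of the 7 vesicle and cytoskeleton genes, 6 were higher in ESCs in each of the 5 comparisons, and without the filter 6 in each but that with EpiSCs, which gave 5. Syngr1, a synaptic vesicle protein, read 1169 and 984 in ESCs, 319 and 393 in day 2 EpiLCs, 151 and 129.95 in EpiSCs, 196 and 152 in the epiblast, 70.8 and 73.4 in PGCLCs and 122 and 82.7 in E9.5 PGCs, with ESCs highest, day 2 EpiLCs next and PGCLCs lowest. ESCs were 14.9-fold higher than PGCLCs (3.89 ± 0.27, limma adjusted p = 3.99e-05) and 10.7-fold higher than PGCs (3.42 ± 0.27). Against day 2 EpiLCs the call (1.60 ± 0.27, adjusted p = 0.00506) was lost without ESC array 1 (0.0531). Cobl, an actin nucleator, read 921 and 899 in ESCs, 56.8 and 28.8 in day 2 EpiLCs, 229 and 86.9 in EpiSCs, 19.7 and 14.3 in the epiblast, 12.8 and 21.3 in PGCLCs and 1.00 and 1.00 in E9.5 PGCs. Both PGC arrays were at the lowest intensity of the table, and ESCs were at least 37.9-fold higher (7.76 ± 0.49). Dnajc6, the clathrin uncoating cofactor auxilin, read 290.4 and 447 in ESCs, 42.6 and 25.3 in day 2 EpiLCs, 13.5 and 17.7 in EpiSCs, 22.4 and 21.1 in the epiblast, 14.7 and 6.28 in PGCLCs and 7.29 and 4.37 in E9.5 PGCs, with ESCs 10.97-fold above day 2 EpiLCs (3.46 ± 0.48) and at least 14.99-fold above PGCs (6.00 ± 0.48). Rab11fip5, an effector of the recycling GTPase RAB11, read 496 and 502 in ESCs, 40.1 and 30.2 in day 2 EpiLCs, 95.9 and 42.2 in EpiSCs, 29.4 and 20.03 in the epiblast, 83.5 and 69.8 in PGCLCs and 20.6 and 7.49 in E9.5 PGCs, with ESCs 20.5-fold above the epiblast (4.36 ± 0.50) and at least 20.7-fold above PGCs (5.33 ± 0.50). In both genes the ESC arrays overlapped no other group, and their calls against the groups named held whichever array was left out. Nckap1l, a WAVE complex subunit of blood cells, was called in none of the 5, with differences from 0.04 ± 0.42 for PGCLCs to 1.20 ± 0.42 for PGCs.

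Of the 3 muscle genes, 2 were higher in ESCs in each comparison but that with PGCs, where all 3 were, with the same counts without the filter. Mymx read 1577 and 1536 in ESCs, 53.8 and 66.4 in day 2 EpiLCs, 1.00 and 1.00 in EpiSCs, 1.00 and 1.00 in the epiblast, 185 and 73.3 in PGCLCs and 1.00 and 1.00 in E9.5 PGCs, so ESCs were high, day 2 EpiLCs and PGCLCs low, and EpiSCs, the epiblast and PGCs at the lowest intensity of the table. ESCs were 26.05-fold higher than day 2 EpiLCs (4.70 ± 0.39, limma adjusted p = 0.000118), 13.4-fold higher than PGCLCs (3.74 ± 0.39) and at least 64.8-fold higher than the epiblast (8.53 ± 0.39). Casq2, the calcium store protein of heart muscle, which was named after its values were seen, was above background in ESCs only (139 and 129), so it passed the filter through the ESC arrays alone. Without the filter its log2 differences were 3.20 to 4.99, and the highest of the 5 limma adjusted p-values was 0.00355. S100a1, a calcium-binding protein of heart muscle, read 107 and 73.2 in ESCs, 35.8 and 74.97 in day 2 EpiLCs, 126 and 123 in EpiSCs, 52.4 and 54.4 in the epiblast, 44.4 and 41.5 in PGCLCs and 30.2 and 38.6 in E9.5 PGCs, with EpiSCs above ESCs (ESC minus EpiSC -0.49 ± 0.35, not called). Its 1 call, against PGCs (1.37 ± 0.35, limma adjusted p = 0.0258), was lost without ESC array 1 (0.19), ESC array 2 (0.0507), E9.5 PGC array 1 (0.149) or E9.5 PGC array 2 (0.0635).

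Of the members without a role group, Accsl read 220.02 and 267 in ESCs, 18.3 and 32.7 in day 2 EpiLCs, 19.7 and 16.8 in EpiSCs, 13.9 and 20.4 in the epiblast, 19.5 and 21.2 in PGCLCs and 14.5 and 16.8 in E9.5 PGCs, above background in ESCs and on 1 day 2 EpiLC array. Its level in ESCs was 9.88-fold that of day 2 EpiLCs (3.30 ± 0.35, limma adjusted p = 0.000378) and at least 10.1-fold that of the epiblast (3.85 ± 0.35). Accsl passed the filter through the ESC arrays alone. Without the filter it was called in all 5 comparisons with ESCs, the highest limma adjusted p being 0.000975. Glod5, a glyoxalase domain gene, read 82.1 and 61.4 in ESCs, 6.74 and 14.1 in day 2 EpiLCs, 15.5 and 9.95 in EpiSCs, 24.1 and 25.3 in the epiblast, 8.70 and 1.87 in PGCLCs and 5.51 and 2.60 in E9.5 PGCs, with the epiblast nearest to ESCs (1.52 ± 0.50, adjusted p = 0.0806, not called) and PGCs far under them (3.88 ± 0.50, adjusted p = 0.000655). Elobl read 101 and 69.7 in ESCs, 21.3 and 27.3 in day 2 EpiLCs, 15.2 and 23.2 in EpiSCs, 32.6 and 30.98 in the epiblast, 46.3 and 37.1 in PGCLCs and 15.7 and 36.98 in E9.5 PGCs, with ESC minus PGCLC (1.01 ± 0.42) and ESC minus epiblast (1.40 ± 0.42, limma adjusted p = 0.0606) not called, the latter passing with the replicate block (0.0402).

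Ubd, which encodes the ubiquitin-like protein FAT10, read 845 and 645 in ESCs, 40.96 and 60.3 in day 2 EpiLCs, 47.8 and 49.2 in EpiSCs, 47.7 and 45.7 in the epiblast, 56.9 and 45.2 in PGCLCs and 33.01 and 42.9 in E9.5 PGCs. ESCs were 14.6-fold to 19.6-fold higher than every other group, with the smallest log2 difference from PGCLCs (3.86 ± 0.28, limma adjusted p = 4.32e-05) and the largest from PGCs (4.29 ± 0.28, adjusted p = 1.71e-05). Hebp1, a heme-binding protein, read 481 and 246 in ESCs, 49.6 and 42.7 in day 2 EpiLCs, 70.8 and 56.2 in EpiSCs, 28.1 and 1.00 in the epiblast, 26.1 and 1.00 in PGCLCs and 23.2 and 1.00 in E9.5 PGCs, and array 2 lay at the lowest intensity in the epiblast, PGCLCs and PGCs. Its call against PGCLCs (5.04 ± 1.09, adjusted p = 0.0142) was lost without ESC array 1 (0.113), ESC array 2 (0.0544) or PGCLC array 2 (0.113). The difference from day 2 EpiLCs was 2.90 ± 1.09 (adjusted p = 0.15, and 0.0178 with the replicate block). Zfp229 read 277 and 358 in ESCs, 107 and 89.5 in day 2 EpiLCs, 125 and 285 in EpiSCs, 133 and 149 in the epiblast, 163 and 234 in PGCLCs and 156 and 152 in E9.5 PGCs, so 1 EpiSC array lay within the ESC range. It was called against day 2 EpiLCs only (1.69 ± 0.37, limma adjusted p = 0.02), and that call was lost without ESC array 1 (0.0711), ESC array 2 (0.152), day 2 EpiLC array 1 (0.0774) or day 2 EpiLC array 2 (0.114), while with the replicate block the epiblast (0.0303) and PGC (0.0443) differences passed as well.

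The step from day 2 EpiLCs to PGCLCs was then examined on amplified arrays, which the choice did not use. The choice bounded this same difference on unamplified arrays, so the counts are not independent of it. Of the 77 members, 8 were higher in PGCLCs and 9 lower, against 6.46% and 6.24% of tested genes, which is 10.4% and 11.7% of the members. Without the filter it was 7 and 5, against 5.22% and 4.91%, and the median over all members was 0.00. Only 5 calls held whichever array was left out: Pde8a and Cpt1a, which were higher, and Spint1, Syngr1 and Abcb1b, which were lower. Pde8a was 8.22-fold higher in PGCLCs (3.04 ± 0.32, limma adjusted p = 0.000277) and Cpt1a 3.74-fold higher (1.90 ± 0.26, adjusted p = 0.00111). Their unamplified PGCLC minus day 2 EpiLC differences, bounded by the choice to under 1, were 0.90 and 0.39. Spint1 was 12.1-fold lower in PGCLCs (-3.59 ± 0.60, adjusted p = 0.00353), Syngr1 4.91-fold lower (-2.30 ± 0.27) and Abcb1b 4.50-fold lower (-2.17 ± 0.26). Of the 17 calls in all, the count was 8 without day 2 EpiLC array 1, 11 without its array 2, 8 without PGCLC array 1 and 9 without its array 2. Beside them, 6 of the 13 endothelium and blood markers were higher in PGCLCs and 0 lower (median log2 difference 0.84), with sums of 1918 and 2446 against 421 and 507 in day 2 EpiLCs and 9 and 9 above background against 6 and 7. The 13 fibroblast markers gave 2 higher and 2 lower, with sums of 845 and 807 against 700.4 and 640.03. The part of such cells was not tested.

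In the embryo, 7 members were higher in E9.5 PGCs than in the epiblast and 8 lower, against 6.11% and 4.36% of tested genes (4 and 8 without the filter, against 4.92% and 3.31%), and the median over all members was 0.00. The calls that held whichever array was left out were Pde8a and Cdo1, which were higher, and Spint1 and Slc39a4, which were lower. Pde8a was at least 3.98-fold higher in PGCs (2.64 ± 0.32, limma adjusted p = 0.000704) and Cdo1 at least 3.96-fold higher (2.11 ± 0.28, adjusted p = 0.00124). Spint1 was 14.7-fold lower (-3.87 ± 0.60, adjusted p = 0.00278) and Slc39a4 5.56-fold lower (-2.47 ± 0.37, adjusted p = 0.00238). Hoxc4 had the largest positive difference (3.22 ± 0.65, adjusted p = 0.0112), and its call was lost without epiblast array 1 (0.0523) or epiblast array 2 (0.081). The call of Vwf (2.12 ± 0.57, adjusted p = 0.041), on PGC arrays that read 31.96 and 11.5, was lost without epiblast array 1 (0.148), epiblast array 2 (0.182) or E9.5 PGC array 1 (0.251). That of Pdgfc (2.27 ± 0.59, adjusted p = 0.0358) was lost without epiblast array 1 (0.16), epiblast array 2 (0.147), E9.5 PGC array 1 (0.187) or E9.5 PGC array 2 (0.0932). Cpt1a was called lower in PGCs (-1.19 ± 0.26, adjusted p = 0.0151), a call lost without epiblast array 1 (0.118), epiblast array 2 (0.0716) or E9.5 PGC array 2 (0.112). The count of 15 called members was 5 without epiblast array 1, 6 without its array 2, 9 without PGC array 1 and 8 without its array 2. Beside it, the endothelium and blood marker sum was 11852 and 5089 in PGCs and 349 and 299 in the epiblast, with 6 of the 13 markers higher in PGCs and 2 lower. Of the 13 fibroblast markers, 6 were higher in PGCs and 1 lower (median log2 difference 1.29), with sums of 2591 and 1072 against 489 and 479 and 11 and 9 above background against 6 and 6. The part of either in these differences was not tested.

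**Figure D4:**
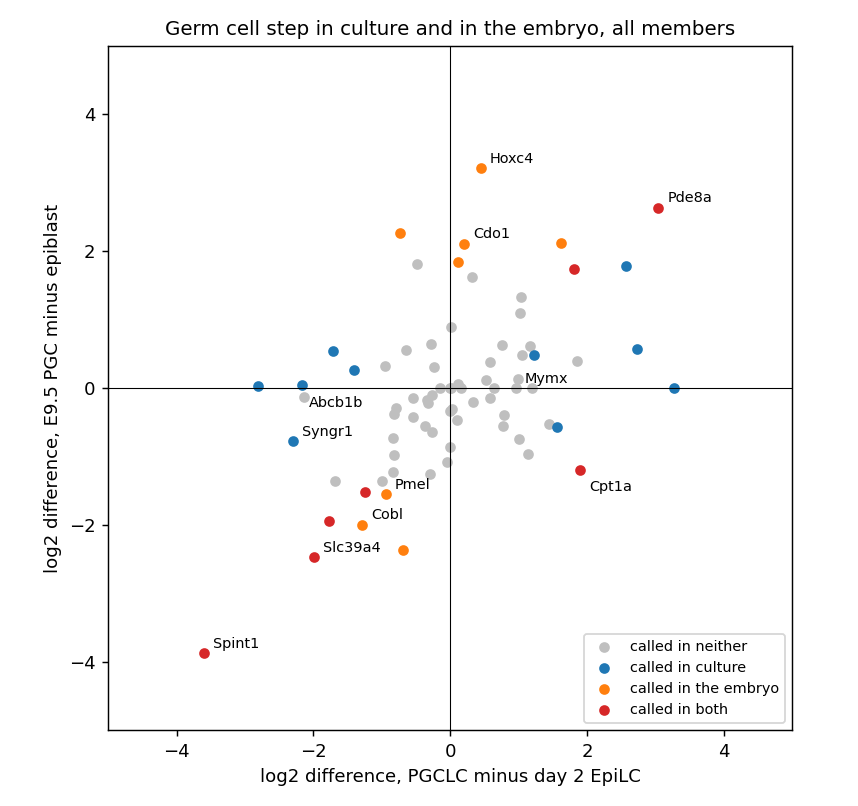
Log2 difference of PGCLCs minus day 2 EpiLCs (x) and of E9.5 PGCs minus epiblast (y) on amplified arrays for all 77 members (points), coloured by the limma call. Pde8a lies high and Spint1 low on both axes, and Cpt1a is higher in culture and lower in the embryo. The median over all members is near 0 on each axis, with single members spread to either side.

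Genes that did return gave other values. On the same unamplified arrays, 74 genes with an ESC mean of at least 6 lay at least 2 lower in day 2 EpiLCs than in ESCs and at least 2 higher again in PGCLCs. On amplified arrays, 65 of these 74 were higher in PGCLCs than in day 2 EpiLCs, against 6.46% of tested genes, which repeats a contrast of their choice. In the embryo, which the choice of neither set used, 54 were higher in PGCs than in the epiblast and 0 lower, against 6.11% and 4.36%. The median was 3.14 over the 74 and 0.00 over the 77 members. ESCs lay above PGCs in 18 of the 74 and in 60 of the 77, against 7.21% of tested genes. The step to PGCLCs parted the sets in their choice, so these counts are not independent of it. The difference between the sets was not tested. Of the 19 genes on the naive pluripotency list, 13 were higher in amplified ESCs than in day 2 EpiLCs, against 4.24% of tested genes. ESCs were above the epiblast in 18 of them, against 6.64%, and above PGCs in 9 and below in 1, against 7.21% and 6.93%. PGCs were above the epiblast in 12 and below it in 1, against 6.11% and 4.36%.

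Between germ cells of the embryo and of culture, 0 members were higher in E9.5 PGCs than in PGCLCs and 9 lower, against 1.32% and 1.56% of tested genes, and 4 were higher and 21 lower at an unadjusted limma p under 0.05. Once replicate numbers were a block, 2 were higher and 12 lower, and without the filter 0 and 6, against 0.868% and 1.02%. Mymx and Cpt1a were the 2 whose calls held whichever array was left out. Mymx was at least 4.84-fold lower in PGCs (-4.79 ± 0.39, limma adjusted p = 0.000576), where both arrays lay at the lowest intensity. Cpt1a was 8.39-fold lower (-3.07 ± 0.26, adjusted p = 0.000576). Mitf was at least 3.26-fold lower in PGCs (-2.59 ± 0.44, adjusted p = 0.0146), a call lost without PGCLC array 1 (0.12), PGCLC array 2 (0.0908) or E9.5 PGC array 1 (0.101). Hoxc4 and Ly75 were the 2 that the block put higher in PGCs (adjusted p = 0.0339 and 0.0297), and Pde8a and Cobl were among those it added as lower (0.0416 and 0.0371). The count of 9 was 3 without PGCLC array 1, 2 without its array 2, 6 without PGC array 1 and 7 without its array 2. When limma took the spread from these 4 arrays alone, 0 members were called, with 4 higher and 22 lower at an unadjusted p under 0.05. Beside the count, 4 fibroblast markers were higher in PGCs and 0 lower (median log2 difference 1.35), with sums of 2591 and 1072 against 845 and 807 in PGCLCs. Of the endothelium and blood markers 2 were higher in PGCs and 5 lower (median -0.67), with sums of 11852 and 5089 against 1918 and 2446. Their part was not tested.

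The epiblast and its cultured counterpart differed in few members. Against day 2 EpiLCs, 0 were higher in the epiblast and 4 lower, against 0.308% and 0.653% of tested genes (0 and 3 without the filter, against 0.236% and 0.467%). At an unadjusted limma p under 0.05, 1 was higher and 16 lower. The 4 were Mymx, Abcb1b, Cdo1 and Mme, the endopeptidase neprilysin, the last named after its values were seen. Mymx was at least 2.49-fold lower in the epiblast (-3.83 ± 0.39, limma adjusted p = 0.00246), a call that held whichever array was left out. Abcb1b was 5.15-fold lower (-2.37 ± 0.26, adjusted p = 0.00399), a call lost without epiblast array 1 (0.0505). Cdo1 was at least 3.28-fold lower (-1.84 ± 0.28, adjusted p = 0.0163), a call lost without day 2 EpiLC array 1 (0.061), day 2 EpiLC array 2 (0.137), epiblast array 1 (0.145) or epiblast array 2 (0.108). The count of 4 was 1 without epiblast array 1 and 2 without any of the other 3 arrays. When limma took the spread from these 4 arrays alone, 0 were called, with 1 higher and 17 lower at an unadjusted p under 0.05. Beside the count, 3 primitive endoderm and 2 visceral endoderm markers were higher in the epiblast and 0 lower, and their part was not tested.

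Whether the germ cell step differed between embryo and culture was tested as an interaction, PGC minus epiblast less PGCLC minus day 2 EpiLC. Among the 77 members, 1 was called higher and 1 lower, against 0.32% and 0.192% of tested genes. Cpt1a had the negative value (-3.09 ± 0.36, limma adjusted p = 0.00979), with both the higher PGCLC arrays and the lower PGC arrays described above. That call was lost without epiblast array 1 (0.0689), epiblast array 2 (0.0586) or PGCLC array 2 (0.0556). On unamplified arrays, which hold no embryo group, the culture step of Cpt1a was 0.39, and the difference between the array sets was not tested. Abcb1b had the positive value (2.21 ± 0.37, adjusted p = 0.0394), being lower in PGCLCs than in day 2 EpiLCs and near equal in PGCs (49.8 and 31.9) and the epiblast (39.7 and 37.6). Its call was lost without day 2 EpiLC array 1 (0.122), day 2 EpiLC array 2 (0.122), epiblast array 1 (0.167), epiblast array 2 (0.164), PGCLC array 1 (0.161), PGCLC array 2 (0.159) or E9.5 PGC array 1 (0.0977). It was also lost without the filter, where Cpt1a was the 1 member called, 0 being higher against 0.17% and 1 lower against 0.148% of genes. The 2 calls became 0 without epiblast array 1, epiblast array 2 or PGCLC array 2, 4 without PGC array 2, and 1 without any of the other 4. Cdo1 passed with the replicate block only (adjusted p = 0.0482).

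**Figure D5:**
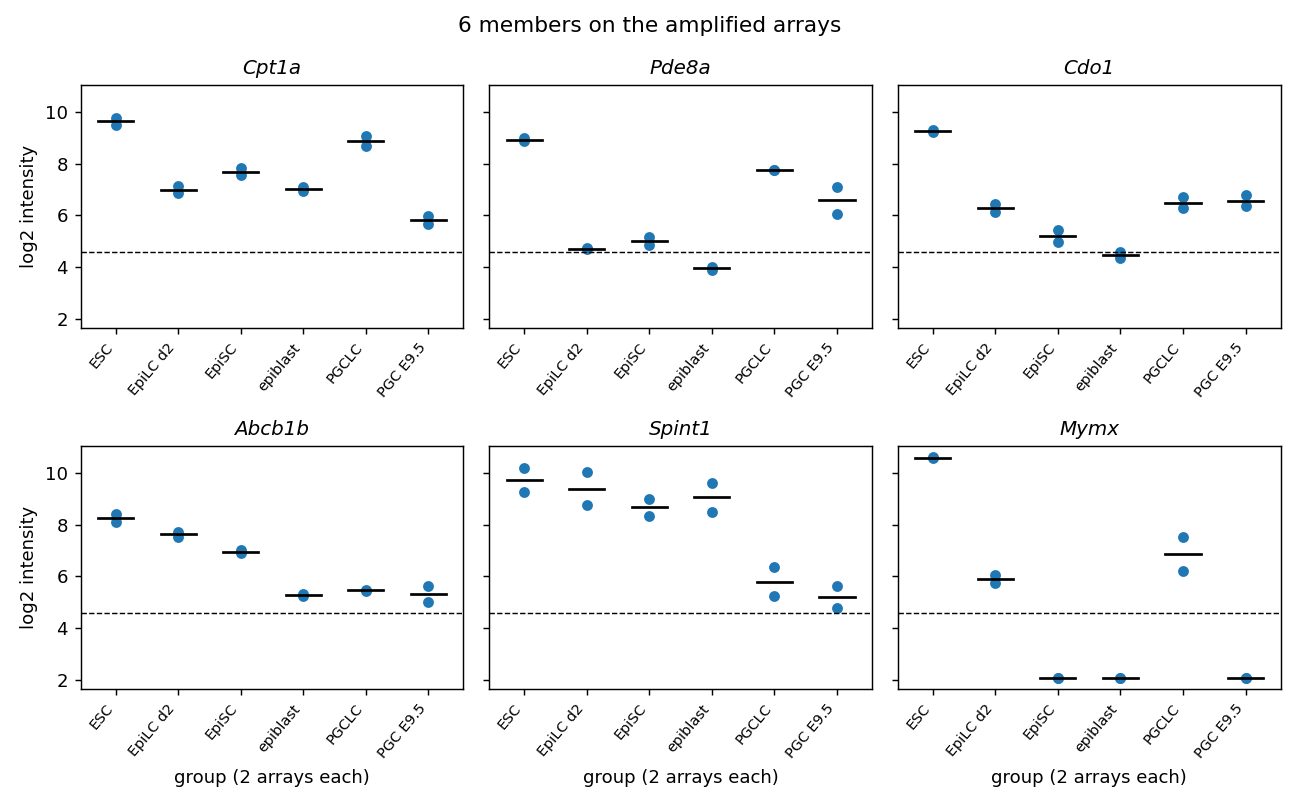
Log2 intensity (y) of 6 members in the 6 amplified groups (x), with both arrays as points, their mean as a bar and the background level dashed. Cpt1a is high in PGCLCs and lowest in PGCs, Pde8a is raised in both germ cell groups, Spint1 is low in both, and Mymx is at the lowest value in EpiSCs, epiblast and PGCs.

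The members were spread over the genome, with 9 of 77 (11.7%) on chromosome 17, which holds 4.58% of the genes on the array, and 8 (10.4%) on chromosome 6, which holds 5.46%. Neither share was tested. Hoxc4 and Hoxc13, both of the Hox C cluster, were on chromosome 15, which held 5. A gene was represented by 1 probe set, and 27 members had 38 others. Of these, 31 were above background in unamplified ESCs, and 22 of the 31 lay at least 1 log2 unit higher there than in day 2 EpiLCs. For Cpt1a, both other probe sets lay higher in ESCs than in day 2 EpiLCs, by 2.88 and 2.84. For Abcb1b the other probe set was near background in ESCs, at 28.7, with a difference of 0.15, and averaging probe sets removed the Abcb1b calls for PGCLC minus day 2 EpiLC, epiblast minus day 2 EpiLC and the interaction.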

How the data were processed

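The values were intensities on a linear scale from 1.00 to 17519 for 45101 probe sets, as the authors deposited them. The arrays were Affymetrix mouse arrays, labelled directly or after PCR amplification, per the labels' protocols. In the sources used here, neither the software nor any scaling behind these intensities is given. Array medians lay between 36.2 and 49.2, so the values were used without further scaling.

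Probe sets were named from the platform annotation: 34958 had 1 gene symbol, 932 had several and 9211 had none. For each of 18194 genes the single-symbol probe set with the highest mean over the 24 arrays was used, and log2 intensities were taken after raising values under 4.2 to that floor. Unamplified and amplified arrays were fitted apart with limma 3.58.1 in R 4.3.3, each over all 6 groups of its set with an intensity trend. The test used genes above the 40th percentile of the set on at least 2 arrays, and p-values were adjusted over all of them by Benjamini-Hochberg. A call needed an adjusted p under 0.05 and a log2 difference of at least 1 in size. The scripts were tested on simulated data. Precision is limited by the number of arrays.

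Replicate numbers were checked for pairing. On amplified arrays same-numbered samples deviated together in 15 of 15 pairs of groups (median correlation 0.37, from 0.114 to 0.611), and the array names carry a code that runs with the number. The fit with it as a block was an alternative. The other alternatives were the filter, the floor, scaling, the intensity trend, the mean of probe sets, the groups in the fit, and leaving out each array.

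The members and the gene lists were chosen with earlier results of these data known. Members described singly were those on a list, the 12 highest in ESCs, the 6 with the largest and the 6 with the smallest difference between PGCs and the epiblast and between day 1 and day 3, the 6 with the smallest amplified difference between ESCs and day 2 EpiLCs, and the 4 on either side of the limits, provisional names passed over. Others are said to have been named after their values were seen, and role groups were made after the members were known. Promoter windows were RefSeq's for GRCm38.p6, matched by symbol for 59 members, and the other 18 are named only.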

Additional observations from a re-analysis of the deposited data

Results flagged for a closer look

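A pair of members had a germ cell step that differed between embryo and culture by the test of the difference itself, PGC minus epiblast less PGCLC minus day 2 EpiLC on amplified arrays. Cpt1a had a value of -3.09 ± 0.36 (SE, limma adjusted p = 0.00979), with 415 and 544 in PGCLCs against 140.0 and 116 in day 2 EpiLCs, and 63.7 and 50.4 in PGCs against 138 and 122 in the epiblast. On unamplified arrays, which hold no embryo group, Cpt1a read 200.3 and 186 in PGCLCs against 138 and 157 in day 2 EpiLCs, a log2 difference of 0.39 where the amplified one was 1.90, and the difference between the array sets was not tested. Abcb1b had a value of 2.21 ± 0.37 (limma adjusted p = 0.0394), with 43.6 and 44.9 in PGCLCs against 186 and 213 in day 2 EpiLCs, and 49.8 and 31.9 in PGCs against 39.7 and 37.6 in the epiblast. Leaving out 1 array ended the Cpt1a call for 3 of the 8 arrays and the Abcb1b call for 7. The 4 groups are shared with the other comparisons of amplified arrays. What these differences come from was not tested.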

How the results depend on the processing

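None of the comparisons between ESCs and another amplified group, nor day 3 minus day 1 EpiLC, had a count that moved by more than 1.5 times under any alternative, and no result changed direction. With 1 array left out, the members called numbered 43 to 52 (ESC minus day 2 EpiLC), 48 to 54 (ESC minus EpiSC), 45 to 52 (ESC minus PGCLC), 51 to 56 (ESC minus epiblast), 52 to 58 (ESC minus E9.5 PGC) and 40 to 44 (day 3 minus day 1). The smaller counts depended on the settings. PGCLC minus day 2 EpiLC, 17 members, became 10 with only the groups compared in the fit and 8 to 11 with 1 array left out. E9.5 PGC minus epiblast, 15 members, became 7 with a floor at the 40th percentile, 9 with only the groups compared and 5 to 9 with 1 array left out. E9.5 PGC minus PGCLC, 9 members, became 14 with the replicate block, 0 with only the groups compared (limma, 4 higher and 22 lower at an unadjusted p under 0.05) and 2 to 7 with 1 array left out. Epiblast minus day 2 EpiLC, 4 members, became 2 with the floor, 2 with the mean of probe sets, 0 with only the groups compared (limma, 1 higher and 17 lower at an unadjusted p under 0.05) and 1 to 2 with 1 array left out. The interaction, 2 members, became 1 without the filter, 1 with the mean of probe sets, 1 with only the groups compared and 0 to 4 with 1 array left out. The number of members, 77, became 149 with a limit of 1.5, 43 with 2.5 and 73 to 82 with 1 array left out. A fit on fewer samples estimates the spread from fewer arrays, and the cause of these changes was not tested.

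The replicate block gave 58, 59, 55, 63 and 64 members for the 5 comparisons with ESCs in the order above, 24 for PGCLC minus day 2 EpiLC, 16 for PGC minus epiblast, 6 for epiblast minus day 2 EpiLC and 3 for the interaction, and beyond the calls given with a block value it changed no other call described in the text. On unamplified arrays 3 of 15 pairs of groups deviated together (median correlation 0.05), which does not settle whether the samples there were paired. Day 3 minus day 1 had 45 members called with the block as without. Replicate 1 had a different array code in unamplified EpiSCs and PGCLCs than in ESCs and EpiLCs, while replicate 2 had the same code throughout. The choosing contrasts of ESCs with EpiSCs and PGCLCs thus crossed codes in replicate 1, and the part of this was not tested. Leaving out both amplified EpiSC arrays, a setting chosen after seeing the data, gave 57, 55, 61 and 64 members for ESCs against day 2 EpiLCs, PGCLCs, epiblast and PGCs. Of 10311 values of single members under an alternative, 9802 kept their direction and their side of the threshold, 375 lost a call and 134 gained one. Members whose level in a group is below background have only a bound there. In amplified PGCs, 52 of the 77 were not above background on both arrays, and 41 were above it on neither. The epiblast gave 49 and 39.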
